A study of Mus musculus with 6 samples.

Results

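The 9 genes described here encode the MLL histone methyltransferase, the proteins most often fused to it in acute leukemia, and the factors that hold these fusions on chromatin: Kmt2a, Mllt3, Mllt1, Mllt10, Aff1, Aff4, Dot1l, Men1 and Psip1. They were taken from the table by name, and all 9 were among the 55487 genes of the deposited table and among the 15020 with enough signal to test. The table holds poly(A)-selected RNA-seq of 6 libraries of GFP+ bone marrow cells from femora and tibiae of mice carrying MLL-AF9 leukemia, 3 labelled PBS and 3 labelled pIpC. In every library the transplanted cells were CD45.2(+) with the genotype Mx1-Cre Brd9fl/fl MA9, the recipients were CD45.1(+) CD45.2(-), and the strain was C57BL/6. Each recipient was given 1000 leukemic cells, then 3 injections of 20 mg/kg pIpC or of PBS on alternate days, and cells were collected 10 days after injection. The study's methods start the injections on the day after transplant, whereas its results describe deletion once the disease had developed. The comparison asks what changes when Brd9, a bromodomain subunit of the non-canonical BAF chromatin remodeller, is deleted in transplanted leukemic cells. For this deletion pIpC raises interferon, and the interferon-inducible Mx1 promoter then drives Cre. No library of pIpC-treated leukemia without the floxed alleles was analysed here, so the deletion and pIpC itself cannot be told apart. The study's methods give recipients aged 6 weeks and sublethal irradiation, the labels lethal irradiation, and how many of the recipients' own marrow cells remained is not given in the sources used here. The labels do not say whether the 3 libraries of a group came from separate mice, so the p-values measure only the spread between these samples.

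MLL, the product of Kmt2a, methylates histone H3 at lysine 4 at active promoters, and in leukemia its amino-terminal part is joined to a partner protein. Most partners belong to a few linked complexes. AF9 (Mllt3) and ENL (Mllt1) are related proteins that read acylated histone H3 through a YEATS domain and bind both AF4 family scaffolds (Aff1, Aff4) of the super elongation complex, which releases paused RNA polymerase II, and DOT1L, the histone H3 lysine 79 methyltransferase, whose cofactor is AF10 (Mllt10). Menin (Men1) and LEDGF (Psip1) tether MLL and its fusions to chromatin. The leukemia was started with an MLL-AF9 cDNA carried by a GFP retrovirus, so whether reads from that cDNA were counted under Kmt2a or Mllt3 cannot be told apart from reads of the native genes in a table of counts per gene.

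Several properties of the libraries touch the values below. Recovered reads ranged from 19277439 to 22378154 per PBS library and from 22348517 to 23586722 per pIpC library. Brd9, on chr13:73937811-73960895 of GRCm38, was at 1927, 1946 and 1632 normalized counts in the PBS libraries and 2036, 2263 and 2011 in the pIpC libraries, so the targeted gene was not lower in the libraries labelled pIpC (log2 fold change 0.20 ± 0.13 SE, adjusted p = 0.259). The exact 2-sided permutation test gave p = 0.1, the smallest that 3 against 3 libraries allow. In the study's design the deletion removes only the exons that encode the bromodomain, whereas this count covers the whole gene. The paper reports that the deletion efficiently lowered Brd9 mRNA in whole bone marrow, with RNA-seq of normal stem and progenitor cells as further evidence. It also reports inefficient Brd9 loss in GFP+ marrow cells of pIpC-treated leukemic mice that died early. Whether the bromodomain exons were lost in these libraries was not tested here. Directions below are therefore given by label. Xist, the RNA of the inactive X chromosome, was between 15.8 and 72.9 in PBS and between 18429 and 26172 in pIpC. Whether the cells of the groups differ in sex, and whether each library matches its label, was not tested, so every difference below is one between libraries as labelled. Markers of mature neutrophils rose in 10 of 10 genes, with a summed level of 17714 to 39289 in PBS and 2026250 to 2094920 in pIpC. Erythroid markers rose in 10 of 10 (summed 23.4 to 38.5 in PBS, with Slc4a1 at 0, and 4538 to 6649 in pIpC) and B cell markers in 8 of 8 (summed 138 to 304 in PBS, with Ms4a1 at 0, and 1297 to 2200 in pIpC). T and NK cell markers rose in 6 of 6 tested, megakaryocyte markers in 4 of 4 tested, basophil, mast and eosinophil markers in 4 of 6 and primary granule markers in 3 of 5, while 4 macrophage markers rose and 3 fell of 8 tested. Of all genes tested, 25.0% rose and 20.4% fell at the same threshold (adjusted p under 0.1). The labelled cells are leukemic, and the part that these cell types have in any value below was not tested. In bulk RNA, fewer cells of a type and less RNA per cell cannot be told apart.

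PBS replicate 3 stood apart from the other PBS libraries in a way that followed gene length. Its log2 values were higher than the mean of the other PBS libraries by a median of 0.74 for genes with under 2 kb of exon sequence and by 0.26 for 2 to 4 kb, and were lower by medians of −0.21 for 4 to 8 kb and −0.67 for 8 kb and over. In the pIpC libraries the same medians lay between −0.07 and 0.08. Most of the 9 genes are long (their exons, merged over transcripts, span from 3835 bases for Men1 to 16670 bases for Kmt2a), so the fold change of each of the 9 genes, each ratio and the counts of each list of partner genes are given with and without PBS replicate 3.

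To show the regulatory sequence at the start of the genes on which the results turn, the 250 bases before the RefSeq start site are printed for Mllt3, Men1 and Aff4, which rose, and for Dot1l, the catalytic partner, which did not pass the test with all libraries. RefSeq promoters on GRCm38.p6 matched 8 of the 9 genes. Where a gene had several entries (2 for Mllt3 and 3 for Men1), the entry nearest the annotated start of the gene was used. The windows are chr4:88033408-88033657 on the minus strand for Mllt3, chr19:6334729-6334978 on the plus strand for Men1, chr11:53350517-53350766 on the plus strand for Aff4 and chr10:80754953-80755202 on the plus strand for Dot1l. Capitals mark matches on either strand to 5 short motifs. The E box was searched as CACGTG. For the GC box the letters were GGGCGG, and for the ETS core they were CCGGAA. The TATA box was searched as TATAAA. The CCAAT box was searched by the letters of its name.
Mllt3: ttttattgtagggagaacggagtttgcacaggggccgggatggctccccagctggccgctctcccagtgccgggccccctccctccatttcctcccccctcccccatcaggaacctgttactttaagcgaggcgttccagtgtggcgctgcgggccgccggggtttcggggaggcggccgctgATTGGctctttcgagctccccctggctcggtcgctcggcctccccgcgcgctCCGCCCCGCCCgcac
Men1: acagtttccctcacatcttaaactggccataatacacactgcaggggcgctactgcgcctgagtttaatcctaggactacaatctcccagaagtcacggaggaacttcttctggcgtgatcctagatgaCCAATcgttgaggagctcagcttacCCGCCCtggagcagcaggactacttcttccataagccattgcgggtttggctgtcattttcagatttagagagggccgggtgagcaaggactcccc
Aff4: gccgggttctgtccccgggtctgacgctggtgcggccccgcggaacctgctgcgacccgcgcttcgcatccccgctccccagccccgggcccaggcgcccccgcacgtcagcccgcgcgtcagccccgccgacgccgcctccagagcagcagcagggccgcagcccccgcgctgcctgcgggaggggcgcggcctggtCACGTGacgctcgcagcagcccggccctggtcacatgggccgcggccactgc
Dot1l: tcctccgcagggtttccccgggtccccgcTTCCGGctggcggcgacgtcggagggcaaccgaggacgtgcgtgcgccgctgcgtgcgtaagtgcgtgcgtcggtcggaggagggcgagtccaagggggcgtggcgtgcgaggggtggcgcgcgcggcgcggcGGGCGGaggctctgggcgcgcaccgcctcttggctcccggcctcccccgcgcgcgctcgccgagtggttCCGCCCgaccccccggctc
The Mllt3 window held 23 CpG pairs, a CCAAT box and 2 GC boxes that share 1 base. Men1 had 8 CpG pairs, 1 CCAAT box and 1 GC box, Aff4 had 34 CpG pairs and 1 E box, and Dot1l had 44 CpG pairs, 2 GC boxes and 1 ETS core. Over 32851 promoter windows of this length the median was 6 CpG pairs (quartiles 2 and 16), and 33.8% held the CCAAT box, 32.7% the GC box, 12.4% the TATA box, 12.0% the ETS core and 6.02% the E box. No motif was common to Mllt3, Men1 and Aff4, and letter matches of this kind are a description of the sequence.

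Of the 9 genes, 3 passed the threshold (adjusted p under 0.1), where 45.3% of all genes tested did. All 3, Mllt3, Men1 and Aff4, rose in the libraries labelled pIpC, against 25.0% of all genes in that direction. No member was lower by limma, where 20.4% of all genes were, and none was lower at an unadjusted p under 0.05 by limma, edgeR or DESeq2 (0 of 9 each). Values of the groups did not overlap for 5 members (Mllt3, Aff1, Aff4, Men1 and Psip1), against 56.8% of all genes. The median log2 fold change was 0.62 over the 9 genes and 0.01 over all genes tested. For all genes it rose with exon length, from −0.27 under 2 kb to 0.11 for 4 to 8 kb and 0.31 for 8 kb and over. Without PBS replicate 3 these figures changed. The median over all genes was then 0.02, and 0.07 for those of 8 kb and over. Then 6 members passed, where 65.4% of 15027 genes did: Mllt3, Men1, Aff4 and Psip1 rose (35.1% of all genes) and Mllt10 and Dot1l fell (30.3% of all genes), and the median over the members was 0.15. The share of members called was thus below the share of all genes with all libraries and close to it without PBS replicate 3.

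**Figure D1:**
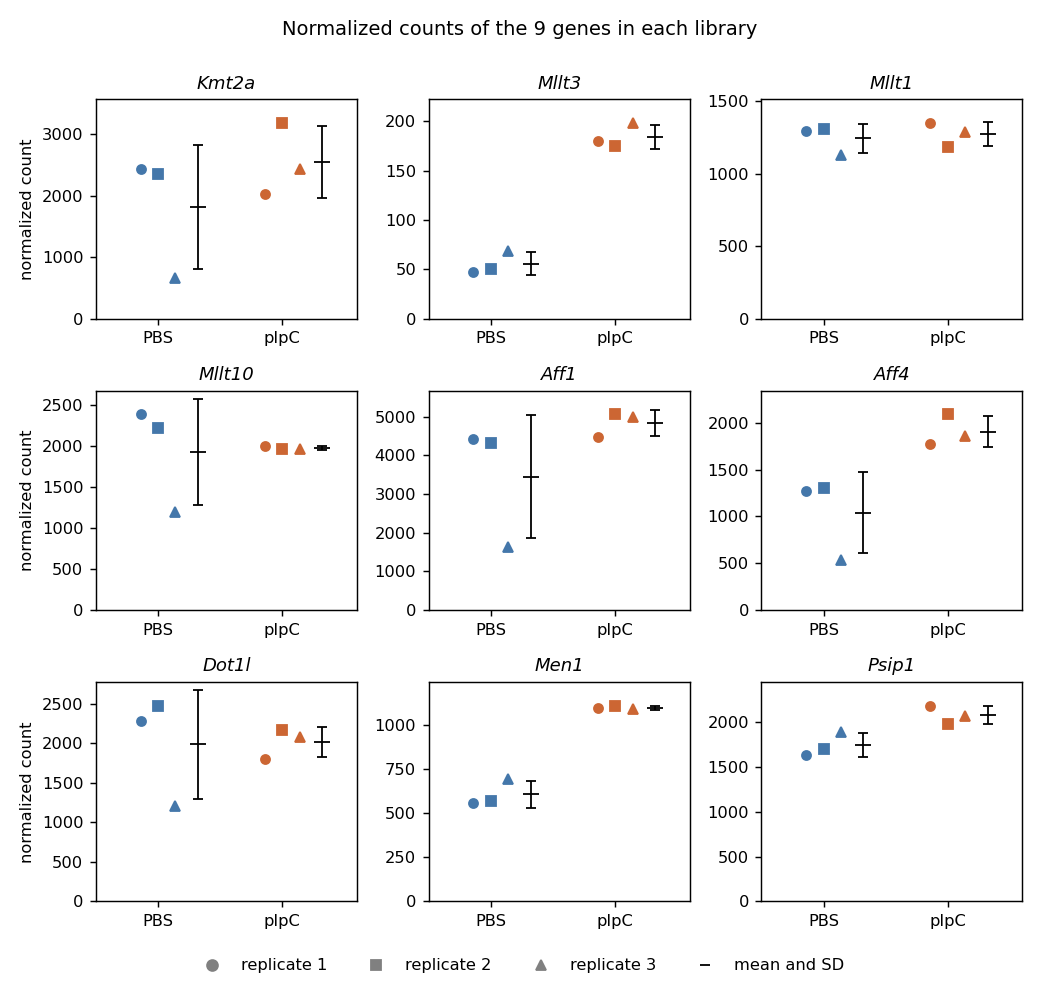
Normalized counts (vertical axis, starting at 0) of each of the 9 genes in the 3 PBS and 3 pIpC libraries, with the mean and SD beside each group. The triangle of PBS replicate 3 lies far below the other PBS libraries for Kmt2a, Mllt10, Aff1, Aff4 and Dot1l and above them for Mllt3, Men1 and Psip1.

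Kmt2a (ENSMUSG00000002028, chr9:44803355-44881296, minus strand) encodes MLL itself. Its normalized counts were 2438, 2347 and 656 in the PBS libraries and 2023, 3179 and 2433 in those labelled pIpC, listed from replicate 1 to 3 here and for each gene below. The groups overlapped, and the third PBS library was at 27.4% of the mean of the other PBS libraries, the lowest such share among the 9 genes. The log2 fold change of 0.69 ± 0.51 (SE) did not pass (adjusted p = 0.330, 95% interval −0.53 to 1.90). Without PBS replicate 3 it was 0.06, with an interval of −0.29 to 0.42 (adjusted p = 0.748), which excludes a doubling. Kmt2a was also the most variable member among the pIpC libraries, with a coefficient of variation of 23.0%, where the others ranged from 0.950% to 9.45%. Its reads share 378 exon bases with an antisense transcript, AC061963.1, which had a mean of only 6.78 normalized counts.

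Mllt3 (ENSMUSG00000028496, chr4:87769925-88033364, minus strand), the gene of the AF9 part of the fusion, gave the largest log2 fold change of the 9. The PBS libraries were at 47.6, 50.6 and 69.0 normalized counts and the pIpC libraries at 179.7, 174.7 and 198.2. Every pIpC library was above every PBS library, and the group means of 55.7 ± 11.6 and 184 ± 12.4 (SD, n = 3 each) differed 3.30-fold. The log2 fold change was 1.72 ± 0.22 (SE, adjusted p = 0.00117), and 1.88 without PBS replicate 3 (adjusted p = 2.2e-05). Unlike the other members with over 8 kb of exons, Mllt3 was not low in PBS replicate 3, which stood at 141% of the mean of the other PBS libraries. The level was low throughout, resting on 50 to 61 reads per PBS library and 171 to 205 per pIpC library.

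Mllt1 (ENSMUSG00000024212, chr17:56892611-56935415, minus strand) encodes ENL, the paralog of AF9. It was at 1294, 1311 and 1129 normalized counts in PBS and 1351, 1182 and 1292 in pIpC, so the groups overlapped. The log2 fold change was 0.04 ± 0.12 (SE, adjusted p = 0.842), with a 95% interval of −0.26 to 0.33, and −0.03 without PBS replicate 3. Mllt1 was the member with the smallest change. The log2 ratio of Mllt3 to Mllt1 within a library, computed on normalized counts with 1 added, was −4.74, −4.67 and −4.01 in PBS and −2.90, −2.75 and −2.70 in pIpC, a rise of 1.69 with no overlap (exact 2-sided permutation p = 0.1, the smallest possible, 0.167 after adjustment over 5 ratios). The rise was 1.92 without PBS replicate 3.

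The AF4 family scaffolds of the super elongation complex were both at higher values in the pIpC libraries. Aff4 (ENSMUSG00000049470, chr11:53350833-53421830, plus strand) was at 1270.1, 1304 and 539 in PBS and 1774, 2089 and 1855 in pIpC, with no overlap. It rose by a log2 fold change of 0.98 ± 0.34 (SE, adjusted p = 0.0641). Leaving out PBS replicate 3 reduced the change to 0.56 and the adjusted p to 4.06e-04, while leaving out any 1 of the pIpC libraries ended the call (adjusted p from 0.142 to 0.183). Aff1 (ENSMUSG00000029313, chr5:103692374-103855322, plus strand), which encodes AF4, was at 4419, 4316 and 1623 in PBS and 4466, 5064.5 and 4989 in pIpC. The lowest pIpC value lay just above the highest PBS value, and the log2 fold change of 0.62 ± 0.38 (SE) did not pass (adjusted p = 0.245). Without PBS replicate 3 it was 0.15, with an interval of −0.02 to 0.31 (adjusted p = 0.113). The log2 ratio of Aff1 to Aff4 was 1.80, 1.73 and 1.59 in PBS and 1.33, 1.28 and 1.43 in pIpC, a difference of −0.36 with no overlap (exact permutation p = 0.1, adjusted 0.167) and of −0.42 without PBS replicate 3.

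Dot1l (ENSMUSG00000061589, chr10:80755206-80795461, plus strand) and Mllt10 (ENSMUSG00000026743, chr2:18055237-18212388, plus strand), which encode the H3K79 methyltransferase and its cofactor, had similar profiles. Dot1l was at 2281, 2477 and 1203 normalized counts in PBS and 1805, 2172 and 2081 in pIpC. For Mllt10 the values were 2385, 2214 and 1189 in PBS and 2000.1, 1964 and 1963 in pIpC. In both genes the pIpC libraries lay between PBS replicate 3 and the other PBS libraries, so the groups overlapped. The log2 fold changes were 0.09 ± 0.28 (SE, adjusted p = 0.826) for Dot1l and 0.10 ± 0.26 (SE, adjusted p = 0.792) for Mllt10. Without PBS replicate 3 both turned in direction and passed the test, Dot1l at −0.24 (95% interval −0.44 to −0.03, adjusted p = 0.0465) and Mllt10 at −0.22 (−0.37 to −0.07, adjusted p = 0.0182). The 1 library thus decides whether these genes are called lower. The members form 36 pairs, of which Dot1l and Mllt10 had the most alike profiles. Their centred log2 values over the 6 libraries had a root mean square difference of 0.11. Among 10486 genes with a mean of at least 100 normalized counts, the nearest lay closer, at 0.04 from Dot1l and 0.03 from Mllt10. Both members were low in PBS replicate 3, at 50.6% and 51.7% of the mean of the other PBS libraries. The part of that library in their likeness was not tested. Mllt10 shares 749 exon bases with Dnajc1 on the other strand, and since the labels describe unstranded libraries its count is uncertain to that extent.

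Men1 (ENSMUSG00000024947, chr19:6334979-6340891, plus strand) encodes menin, which binds the amino terminus of MLL that every MLL fusion keeps. The values were 557, 569 and 695 in PBS and 1094, 1109.55 and 1089.8 in pIpC. The Men1 values of the pIpC libraries were nearly identical, with a coefficient of variation of 0.950%, and all lay above those of the PBS libraries. They rested on 1096, 1086 and 1127 reads, for which counting error alone gives a wider spread on average. Their closeness is therefore not a measure of precision. The 1.81-fold difference between group means (607 ± 76.3 and 1098 ± 10.4, SD, n = 3 each) corresponded to a log2 fold change of 0.86 ± 0.13 (SE, adjusted p = 0.00279), and to 0.96 without PBS replicate 3 (adjusted p = 7e-06). Men1 is the member with the shortest exon sequence, and PBS replicate 3 was above the other PBS libraries for it.

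Psip1 (ENSMUSG00000028484, chr4:83455680-83486459, minus strand), whose product LEDGF carries the menin and MLL complex to methylated histone H3 lysine 36, was at 1634, 1702.5 and 1889 in PBS and 2182, 1981 and 2063 in pIpC. All pIpC libraries were above all PBS libraries, by a margin smaller than the spread within PBS. The log2 fold change of 0.25 ± 0.12 (SE) did not pass with all libraries (adjusted p = 0.134) and passed at 0.31 without PBS replicate 3 (adjusted p = 0.00419). The log2 ratio of Psip1 to Hdgfl2, a relative in the same protein family, was −0.02, −0.04 and −0.49 in PBS and 0.30, 0.23 and 0.27 in pIpC, again with no overlap and the smallest possible exact permutation p of 0.1 (adjusted 0.167). The difference of 0.45 was 0.30 without PBS replicate 3. Psip1 shares 483 exon bases with Snapc3 on the other strand.

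**Figure D2:**
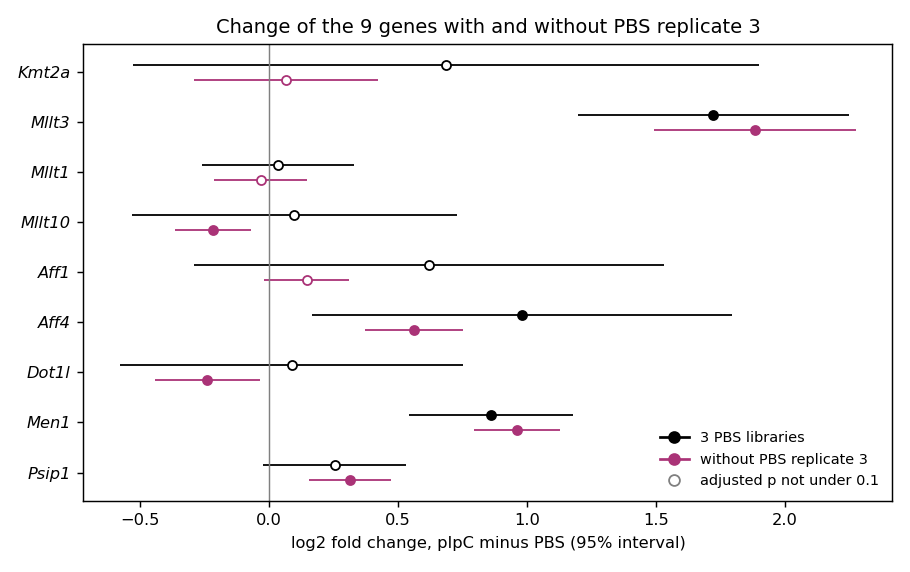
Log2 fold change of each gene, pIpC minus PBS (horizontal axis, bars are 95% intervals), from limma over all genes with 3 PBS libraries (black) and without PBS replicate 3 (purple). Filled points pass the adjusted p threshold. Mllt3, Men1 and Aff4 are filled in both fits, and Dot1l and Mllt10 lie right of 0 in black and left of it in purple.

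The values of PBS replicate 3 followed gene length among the members too, with exceptions. The 5 genes for which it stood lowest against the mean of the other PBS libraries were Kmt2a (27.4%), Aff1 (37.2%), Aff4 (41.9%), Dot1l (50.6%) and Mllt10 (51.7%). Mllt1 was at 86.7%. Psip1 was at 113%, Men1 at 123% and Mllt3, with 12004 bases of exons, at 141%. When the trend of each library with length was removed, Mllt3 stayed past the threshold at a log2 fold change of 1.40 (adjusted p = 0.0184), Men1 at 0.87 (adjusted p = 7.24e-04) and Aff4 at 0.63 (adjusted p = 0.00927), and no other member passed.

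**Figure D3:**
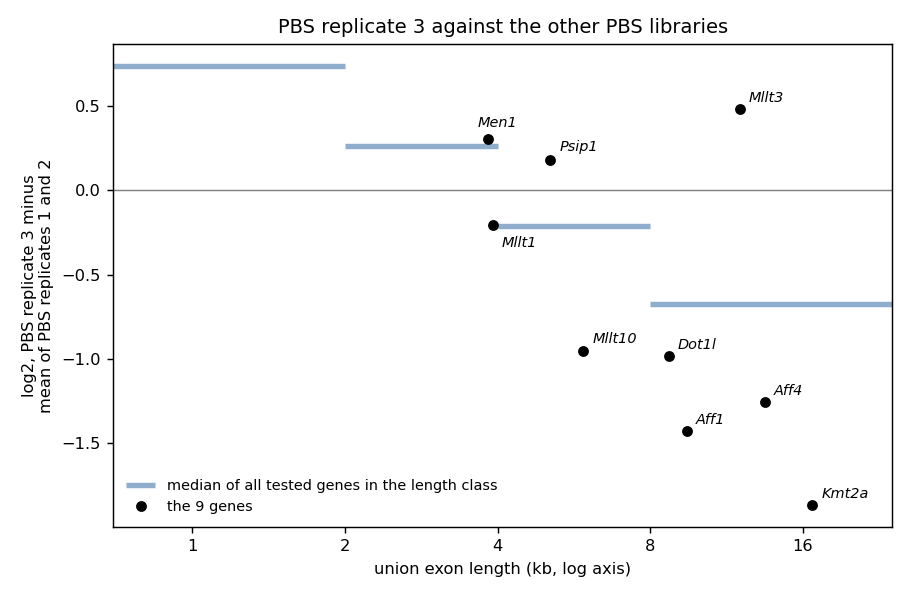
Log2 difference of PBS replicate 3 from the mean of the other PBS libraries (vertical axis) against merged exon length in kb (log axis) for the 9 genes, with the median over all tested genes in 4 length classes as bars. Kmt2a, Aff1, Aff4, Dot1l, Mllt10 and Mllt1 lie below the bar of their class, and Mllt3 lies above 0 where its class has a median of −0.67.

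Levels of the members relative to each other were compared as normalized counts per kb of exon sequence. In the pIpC libraries the order from highest to lowest mean was Aff1 at 512 ± 34.4, Psip1 at 408 ± 19.9, Mllt10 at 334 ± 3.59, Mllt1 at 325 ± 21.9, Men1 at 286 ± 2.72, Dot1l at 232 ± 21.9, Kmt2a at 153 ± 35.2, Aff4 at 142 ± 12.2 and Mllt3 at 15.3 ± 1.03 (SD, n = 3). Neighbours in this order did not overlap between libraries, apart from Mllt10 with Mllt1 and Kmt2a with Aff4. In PBS the order was the same except that Dot1l (228 ± 78.8) stood before Men1 (158 ± 19.9), and Mllt3 was at 4.64 ± 0.967. Each of the first 4 genes overlapped there with the next of these 4, as did Dot1l with Men1, Men1 with Kmt2a and Kmt2a with Aff4. Mllt3 was the least abundant member in every library. With the length of the longest transcript in place of merged exons, Psip1 came first in both groups, and Mllt3 stayed last. In pIpC, Men1 (366) then stood before Mllt1 (351) and Aff4 (189) before Kmt2a (155), with overlap in each pair.

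**Figure D4:**
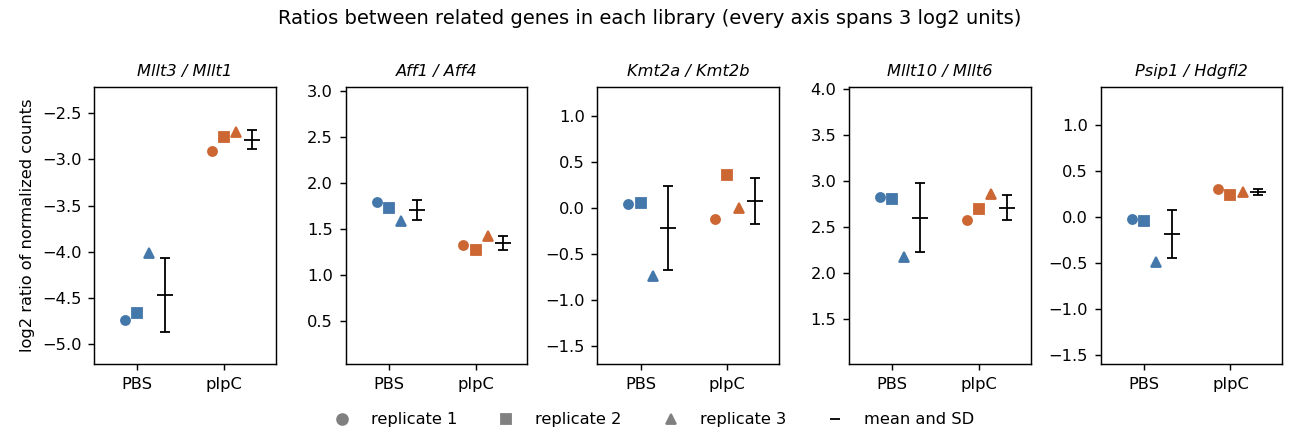
Log2 ratio of normalized counts (1 added) of 5 pairs of related genes in each library, with the mean and SD beside each group and the same span on every vertical axis. Mllt3 to Mllt1 moves most, by 1.69, and the groups overlap for Kmt2a to Kmt2b and Mllt10 to Mllt6.

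In the 2 ratios not yet given, the groups overlapped. Kmt2a to Kmt2b, the gene of the nearest relative of MLL, was at a log2 ratio of −0.22 ± 0.46 in PBS and 0.08 ± 0.25 in pIpC (SD, n = 3, exact permutation p = 0.6, adjusted 0.75), and the difference of 0.29 was 0.029 without PBS replicate 3. Mllt10 to Mllt6, the AF17 relative of AF10, was at 2.60 ± 0.37 and 2.71 ± 0.14 (exact permutation p = 0.8, adjusted 0.8), and the difference of 0.11 became −0.10 without PBS replicate 3.

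The genes with the most similar profiles to Kmt2a and Mllt3 were sought among 10486 genes with a mean of at least 100 normalized counts, by the root mean square difference of centred log2 values over the 6 libraries. The nearest to Kmt2a were Macf1 (0.06), Gm17017 (0.09) and Herc1 (0.09), and like Kmt2a all 3 were low in PBS replicate 3 (1437, 47.5 and 887 normalized counts, where PBS replicate 1 had 4920.5, 181.7 and 3208). Macf1 and Herc1, with 31402 and 27464 bases of exons, are even longer than Kmt2a, whereas Gm17017 has 2405. The nearest to Mllt3 were Tbrg1 (0.08), Trem3 (0.09) and Spns2 (0.10). Trem3, a receptor of myeloid cells, was at 1432, 1299 and 1915 in PBS and 5359.6, 5117 and 5278 in pIpC.

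The complexes around the 9 genes were described from 9 lists holding 65 other genes, of which 63 could be tested. Of these, 17 rose and 7 fell, 38.1% in all, below the 45.3% of all genes tested. Without PBS replicate 3, 28 rose and 12 fell (63.5%, where 65.4% of all genes were called). By direction, 25.0% of all genes rose and 20.4% fell with all libraries, and 35.1% rose and 30.3% fell without PBS replicate 3. The counts of each list below stand against these shares. The median log2 fold change over the 63 genes was 0.23, and 0.14 without PBS replicate 3. Over all genes tested it was 0.01 and 0.02, and over those with 8 kb and over of exons 0.31 and 0.07. Where a list below had a call in the other direction without that library, the gene is named, having been chosen after its values were seen.

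Among partners of the super elongation complex, 3 of 8 tested genes rose, where 25.0% of all genes did, and the median of the list was 0.34. With PBS replicate 3 left out, 4 rose, Eaf1 fell (−0.16) and the median was 0.17. Aff3, the lymphoid relative of Aff1 and Aff4, was at 0, 1.0 and 1.1 normalized counts in PBS and 378, 492 and 492 in pIpC. It rested on 2 reads in all PBS libraries and 1370 in the pIpC libraries, a ratio of 623 between the groups' shares of all reads (95% exact counting interval 172 to 5147, which covers counting error only). The B cell markers, 8 of 8 higher, moved with it, as did all tested neutrophil, erythroid, T and NK cell and megakaryocyte markers. The part of any of these cell types in it was not tested. Ell2, an elongation factor, was at 99.5, 106 and 104 in PBS and 404, 322 and 346 in pIpC (log2 fold change 1.77, adjusted p = 3e-04), and its relative Ell rose by 0.39 (adjusted p = 0.0426). Cdk9, the kinase of P-TEFb, had the lowest value of the list at −0.32 and did not pass (adjusted p = 0.227), and was at −0.12 without PBS replicate 3. Of 4 genes that control P-TEFb, 1 was called, Larp7, a protein of the inhibitory 7SK particle, which fell by 0.53 on the log2 scale (adjusted p = 0.0815). Larp7 was at −0.32 without PBS replicate 3 (adjusted p = 0.0105), where 2 genes of the list rose, Hexim1 (0.27) and Mepce (0.18).

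In the core complex shared by MLL1 and MLL2, 1 of 8 genes rose and 2 fell, where 25.0% and 20.4% of all genes did. The median of the list was 0.05. The counts without PBS replicate 3 were 2 and 3, and the median was −0.033. Ash2l, a core subunit, was at 2914, 2692 and 2844 normalized counts in PBS and 1525, 1390.5 and 1397 in pIpC, without overlap, and had a log2 fold change of −0.97 (adjusted p = 6.62e-04). Tasp1, the protease that cleaves MLL as it matures, changed by −1.14 (adjusted p = 0.00255), from 347, 371 and 456 to 195, 167 and 167. Hcfc2 rose by 0.37 (adjusted p = 0.0645). Hcfc1 had the highest value at 0.60 (adjusted p = 0.354), which was 0.01 without PBS replicate 3. In the other COMPASS complexes 4 of 9 tested genes were called, all higher, with a median of 0.58, where 45.3% of all genes were called. When PBS replicate 3 was left out, 4 rose, Setd1a fell (−0.19) and the median was 0.16. With all libraries Kdm6a, the histone H3 lysine 27 demethylase that works with MLL3 and MLL4, led the list at 1.25 (adjusted p = 0.0188). Without PBS replicate 3 it was at 0.88 (adjusted p = 2.02e-05). Among the partner genes named, Kdm6a lies on the X chromosome, as do Hcfc1, Bcor and Ube2a. Genes on the X chromosome are also among the other MLL fusion partners called higher below. Whether the difference in Xist bears on any of these genes was not tested. Cxxc1, a subunit of the SETD1 complexes, was lowest at −0.003 with all libraries.

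Of the 5 genes grouped as DOT1L partners and AF9 binders, 2 were called, both lower, where 20.4% of all genes were lower. The median of the list was −0.33. Both were also lower without PBS replicate 3, when the median was −0.22 and no other gene of the list was called. Cbx8, a Polycomb protein that binds AF9, was at 540, 552 and 790 in PBS and 332, 260 and 310 in pIpC (log2 fold change −1.04, adjusted p = 0.00696). Bcor, a corepressor that also binds AF9, was at 2794, 2841 and 1675 in PBS and 1458, 1409 and 1351 in pIpC (−0.75, adjusted p = 0.0355). Trrap was highest in the list at 0.17 (adjusted p = 0.708) and −0.22 without PBS replicate 3. Among genes of H2B ubiquitination, the mark that stimulates DOT1L, 1 of 5 rose (Rnf40, an E3 ligase subunit, 0.39, adjusted p = 0.0589) and 1 fell (Ube2a, an E2 enzyme, −0.60, adjusted p = 0.0869). In the fit without PBS replicate 3, 3 rose and 1 fell, and Ube2a was at −0.33 (adjusted p = 0.00694). In the PAF1 elongation complex 0 of 6 genes passed by limma or edgeR, and 0 had an unadjusted p under 0.05 by either, whereas DESeq2 called 1. That gene, Leo1, was the lowest at −0.30, and Rtf1 was the highest at 0.23. By limma without PBS replicate 3, Paf1 was called higher (0.20) and Leo1 lower (−0.22), and Rtf1 was at −0.014.

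Jund, an AP-1 factor that menin binds, gave the largest fall in these lists. It was at 1555, 1777 and 2348 in PBS and 323, 375 and 359 in pIpC, a log2 fold change of −2.40 ± 0.18 (SE, adjusted p = 1.19e-04) and −2.24 without PBS replicate 3. Hdgf, a relative of Psip1, was the highest of the menin and LEDGF neighbours at −0.12 (adjusted p = 0.555) and was at 0.0087 without PBS replicate 3, where 1 of the 3 genes, Jund, was called, as with all libraries. Of 15 other genes recorded as MLL fusion partners, 8 were called, all higher, where 25.0% of all genes were higher. The median of the list was 0.61. With PBS replicate 3 left out, 12 rose (35.1% of all genes did), Afdn fell (−0.40) and the median was 0.33. Tet1, a 5-methylcytosine dioxygenase, led them, at 4.3, 1.0 and 0 normalized counts in PBS and 346, 399.5 and 411 in pIpC (log2 fold change 7.45, adjusted p = 1.53e-04). The PBS values of Tet1 rested on 5, 1 and 0 reads, and the part of other cell types in its change was not tested. Mllt11 had the lowest value at −0.25 (adjusted p = 0.38).

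**Figure D5:**
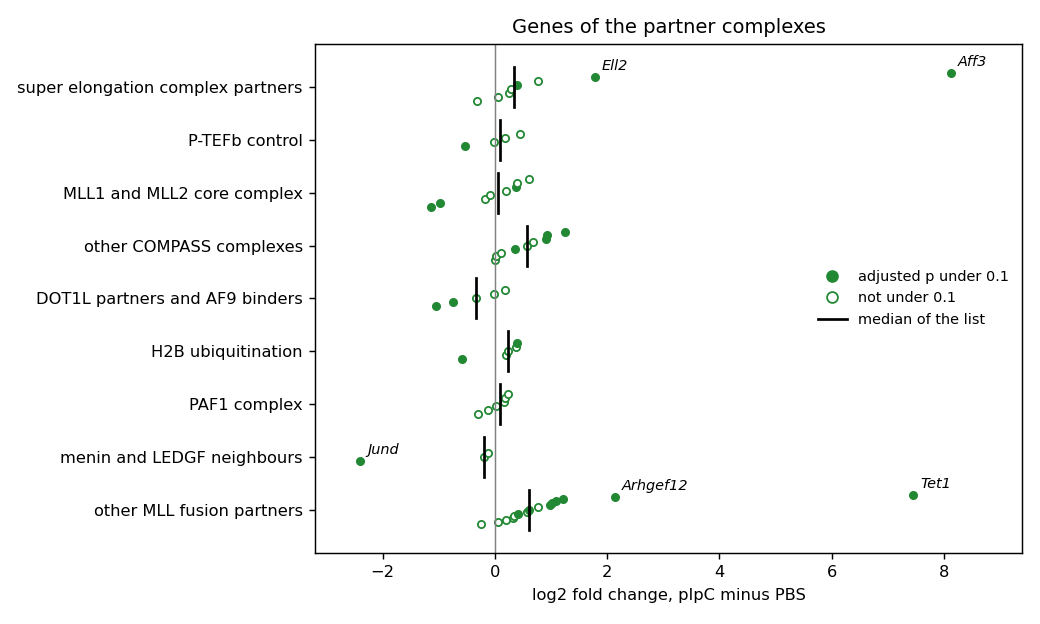
Log2 fold change, pIpC minus PBS (horizontal axis), of the 63 tested genes of the 9 partner lists, 1 point per gene, filled where the adjusted p is under 0.1, with a bar at the median of each list. Aff3 and Tet1 lie far to the right at 8.12 and 7.45 and Jund farthest to the left at −2.40.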

How the data were processed

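GFP+ bone marrow RNA was sequenced in 3 PBS and 3 pIpC libraries. The deposited values are a signal: gene read counts that the authors divided by 1 size factor per library. The submitters' processing notes name HISAT2 2.2.1, SAMtools, featureCounts, Subread, edgeR and GRCm38, whereas the study's methods describe STAR with RSEM for c-Kit+ cells and stranded libraries, so the pipeline behind the table is uncertain. With a tolerance of 0.05, 100% of values were whole multiples of 1 read, and the recovered reads were used for edgeR (4.0.16) and DESeq2 (1.42.0). The test was limma (3.58.1, under R 4.3.3) on log2(value + 1), its prior variance following mean intensity, for genes with a mean of at least 10, without a replicate block, at a Benjamini-Hochberg adjusted p under 0.1. Fold changes on this scale understate the change of low genes. Positions and lengths came from GENCODE on GRCm38 and promoters from RefSeq. Named genes were the members, Brd9, Xist, the nearest profiles to Kmt2a and Mllt3, the highest and lowest gene of each partner list and, in 4 of these lists, each gene called. Of the genes this rule names, 1 is not reported here. The members and lists were chosen with earlier results of these data known. The limma and edgeR fits were also run on simulated counts, and the outcome is not reported here. Pseudocount, filter, scaling, length trend, test and left-out libraries were varied.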

Additional observations from a re-analysis of the deposited data

How the results depend on the processing

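Mllt3 and Men1 kept their direction and stayed past the threshold under all 21 alternatives, with log2 fold changes of 1.40 to 1.90 and 0.80 to 0.96, and Aff4 did so under 17 (0.54 to 1.20). Their adjusted p ranged from 8.14e-14 to 0.0184 for Mllt3, from 8.94e-21 to 0.021 for Men1 and from 3.45e-07 to 0.183 for Aff4. Kmt2a and Aff1 passed under none, with values of 0.06 to 1.01 and 0.13 to 0.87. Brd9 did not pass under any. Aff4 at 0.98 missed an adjusted p of 0.05, and with 1 library left out it ranged from 0.56 to 1.20, without a call when the library was a pIpC one.

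Without PBS replicate 3, 6 members were called by limma, edgeR and DESeq2 alike, 2 of them lower, against 2 to 6 members, 2 to 4 higher and 0 to 2 lower, over all libraries left out in turn. In that setting edgeR and DESeq2, both added after seeing the data, gave Mllt1 −0.052 and −0.044, Mllt10 −0.24 and −0.23, Dot1l −0.26 and −0.25, and Psip1 0.29 and 0.30. With libraries left out in turn Mllt1 ranged from −0.033 to 0.089, Mllt10 from −0.22 to 0.28, Dot1l from −0.24 to 0.28 and Psip1 from 0.21 to 0.31, and the Mllt10 to Mllt6 ratio from −0.10 to 0.22. Quantile normalization, which moved the median of all genes to −0.12 and the calls from 3750 higher and 3058 lower to 3244 and 4078, gave Mllt1 −0.073, Mllt10 −0.046 and Dot1l −0.058, and median-centring gave Mllt1 −0.0017. Removing the length trend, with or without the replicate block, gave Mllt10 −0.017 and Dot1l −0.14. DESeq2 with all libraries called Psip1 at 0.25.

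Of the partner genes, 40 were called without PBS replicate 3 (28 higher, 12 lower), 40 by edgeR (26 and 14) and 38 by DESeq2 (13 lower). Leaving out libraries in turn gave 12 to 40 calls, 8 to 28 higher and 4 to 12 lower, with 14, 12 and 12 calls without pIpC replicate 1, 2 and 3. An adjusted p under 0.05 left 15 (10 higher), and quantile normalization 11 higher. The named partner genes were compared 483 times: 416 kept direction and side of the threshold, 41 lost the call, 8 gained it and 18 turned in direction. Those that turned were Cxxc1 (0.0011 with the length trend removed, with or without the block, and −0.047 to 0.029 with libraries left out), Hcfc1 (−0.014 and −0.0054 by edgeR and DESeq2 without PBS replicate 3), Hdgf (0.0041 with the length trend removed, also with the block, and −0.20 to 0.0087 with libraries left out), Rtf1 (−0.035 and −0.026 by edgeR and DESeq2 without PBS replicate 3, and −0.014 to 0.36 with libraries left out) and Trrap (−0.30 with the length trend removed, also with the block, −0.24 and −0.23 by edgeR and DESeq2 without PBS replicate 3, and −0.22 to 0.41 with libraries left out). The cause of these differences was not tested.

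Deviations from the group means correlated at −0.12, 0.14 and 0.04 for replicate numbers 1 to 3. Since PBS replicate 3 stood apart and weighs on every PBS deviation, these values cannot show whether the numbers pair the samples. With the replicate block limma called 3 members, as without it, and 11 partner genes higher, and Mllt3, Men1 and Aff4 were at adjusted p = 0.00484, 0.0144 and 0.0474. Of the members, Mllt3 rests on the fewest reads, 50 to 61 per PBS library, and depth limits the partner genes Aff3 and Tet1 in PBS more.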
